A study of Schizosaccharomyces pombe with 87 samples.

Results

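The subtelomeric protein-coding genes of fission yeast, Schizosaccharomyces pombe, are described here for chromosomes I and II. In the deposited all-chromosomes annotation, genes with an mRNA record were taken if they lay wholly within 100 kb of position 1 or of the last annotated feature end of their chromosome. The rule found 122 of the 5113 protein-coding genes in that annotation. The 4 ends are called I left, I right, II left and II right, after the chromosome and the side, and held 32, 33, 31 and 26 of these genes. The other 4077 protein-coding genes of chromosomes I and II were the rest of the chromosomes.

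Subtelomeres are the stretches next to the telomeres, the repeats that cap a chromosome. In fission yeast they hold heterochromatin, in which the methyltransferase Clr4 methylates histone H3 at lysine 9 and HP1 proteins such as Swi6 bind that mark, and silencing spreads inward from the telomere. Gene families shared between chromosome ends, transporters and genes used under starvation are known features of yeast subtelomeres.

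The series concerns H3K9me2 and H3K9me3, the di- and trimethylated forms of that lysine, measured by chromatin immunoprecipitation and sequencing at 32 °C. Its 87 libraries, 48 immunoprecipitated and 39 input, fall into 44 groups of genotype, mark, fraction and strain set. A set labelled ectopic (56 libraries) covers 6 mutants beside the wild type: clr4Δ, swi6Δ, mst2Δ set1Δ, the pair swi6Δ set1Δ and swi6Δ mst2Δ, and the triple mutant swi6Δ mst2Δ set1Δ. A set labelled endogenous (31 libraries) covers the 4 mutants that lack swi6 beside the wild type. The gene mst2 encodes a histone acetyltransferase and set1 the methyltransferase for lysine 4 of histone H3. Both deposited files used here are genome annotations, in which 0 of 58359 and 0 of 40352 records carry a score, so H3K9 methylation at these genes was not analysed here and the depth of the libraries is unknown. Every value below is a position, a sequence or a count of annotated features, with no replicate, no test of the ends against the rest and no p-value. The ends were set beside the rest of the chromosomes and beside 96 non-overlapping windows of 100 kb cut from it.

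Genes were sparse at all 4 ends and left most of the DNA uncovered. I left, I right, II left and II right held 32, 33, 31 and 26 protein-coding genes per 100 kb, against 41.9 in the rest of the chromosomes. The windows held between 22 and 49 genes, with a median of 42 and an SD of 4.71. Within its own chromosome, 1 of 53 windows had as few genes as I left, 2 of 53 as few as I right, 1 of 43 as few as II left and 1 of 43 as few as II right. Windows were cut without leaving out the centromeres. The sparsest, at 3700001 to 3800000 bp of chromosome I and 1600001 to 1700000 bp of chromosome II, held 22 and 25 genes. Without the centromere records the rest held 42.3 genes per 100 kb. Gene records covered 41.8%, 42.1%, 39.9% and 36.5% of the bases of I left, I right, II left and II right, against 79.1% of the rest. The median space between neighbouring genes was 1454.5 bp over the 118 neighbouring pairs of the ends and 240 bp over the 4075 pairs of the rest. Neighbours overlapped in 5.08% of pairs at the ends and in 22.6% of pairs in the rest. Gene records take in any untranslated region drawn, and 28.7% of genes at the ends had none drawn, against 3.56% of the rest. Coverage, spacing and overlap of coding sequences alone were not computed. The widest space at the ends, 12283 bp, against 51487 bp in the rest, separated SPBCPT2R1.04c from the helicase gene tlh2 at II right and held 6 lncRNA genes and 1 LTR record.

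The shares of pairs by orientation were close to those of the rest. Convergent, divergent and tandem pairs made up 27.1%, 28.0% and 44.9% of pairs at the ends, and 27.5%, 27.5% and 45.0% in the rest. Of the 122 genes, 63 were transcribed away from the chromosome end and 59 towards it.

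**Figure D1:**
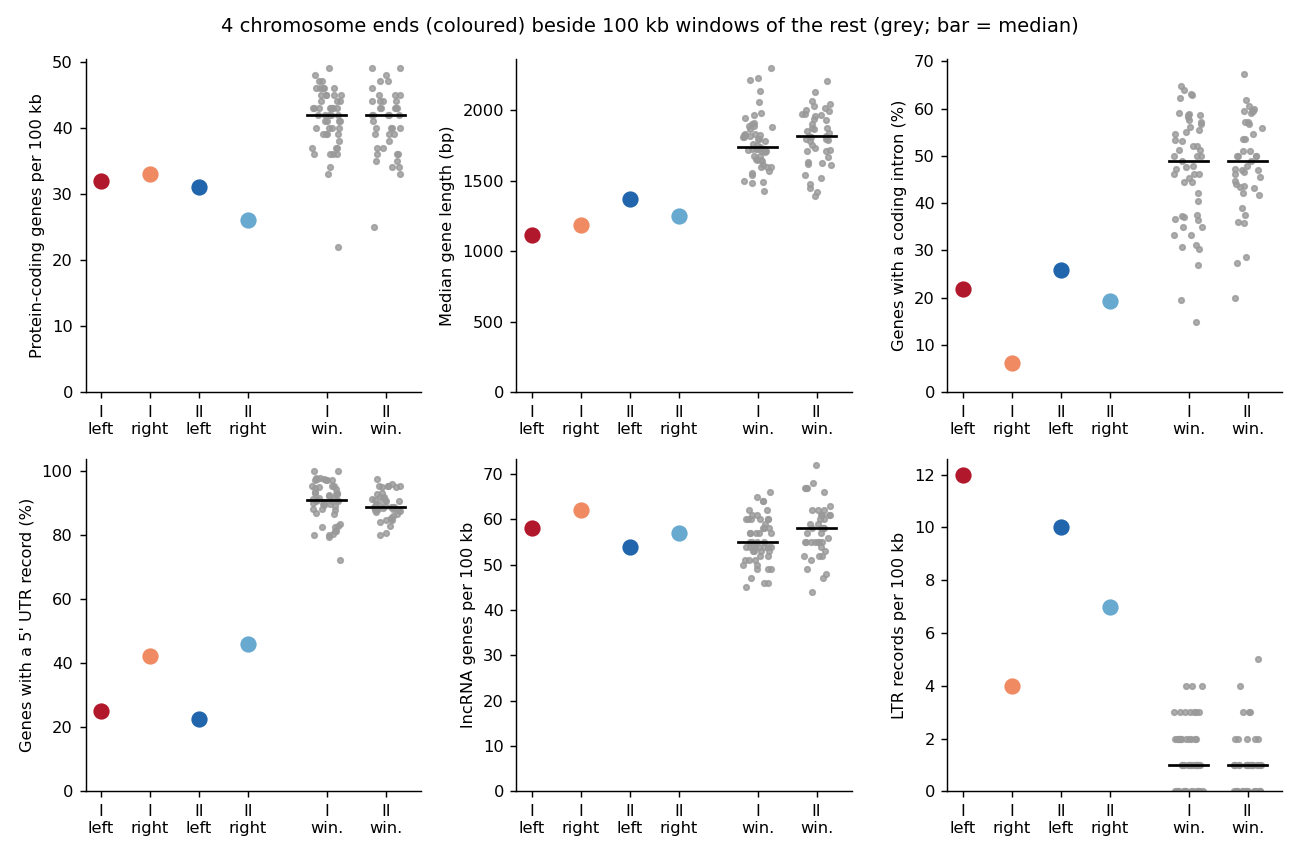
Each panel plots 1 measure for the 4 ends (coloured points) and for the 100 kb windows of chromosomes I and II (grey points, black bar for the median): genes per 100 kb, median gene length in bp, percent of genes with a coding intron, percent with a 5' UTR record, lncRNA genes per 100 kb and LTR records per 100 kb. The ends lie below every window for gene length and 5' UTR records, and among the windows for lncRNA genes.

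Subtelomeric genes were short. The median gene length was 1112.5 bp at I left, 1187 bp at I right, 1370 bp at II left and 1246.5 bp at II right, and the 96 windows had medians between 1390 and 2301 bp. Over the 4 ends it was 1237 bp, against 1775 bp in the rest. Coding length differed less, with a median of 944.5 bp at the ends and 1152 bp in the rest. Only I left, at 790.5 bp, was below every window in coding length. I right, II left and II right had medians of 993, 1071 and 939 bp, within the 895.5 to 1674 bp of the windows. The longest members were tlh2 (SPBCPT2R1.08c, 6015 bp) and tlh1 (SPAC212.11, 5662 bp), which encode RecQ-type DNA helicases, and the transcription factor gene grt1 (SPBPB8B6.04c, 3813 bp). The shortest were SPAC922.09 at 216 bp, annotated as a hypothetical protein, the sequence orphan SPBCPT2R1.02 at 360 bp, and SPAC212.12 and SPAC750.07c, which encode identical GPI-anchored proteins, at 372 bp each.

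Most subtelomeric genes had no intron. A coding intron, a space between coding segments of a messenger RNA, was found in 7 of 32 genes at I left, 2 of 33 at I right, 8 of 31 at II left and 5 of 26 at II right. Together these were 22 of 122 genes, or 18.0% (95% Wilson interval 12.2 to 25.8%), against 47.7% of genes in the rest. I right (6.06%) and II right (19.2%) were below every window of their chromosome. On chromosome I, 2 of 53 windows had a share no larger than that of I left, and on chromosome II, 1 of 43 had a share no larger than that of II left. Such intervals treat genes as independent draws, and neighbouring or copied genes are not, so they are only a guide. The 122 genes held 30 introns, 0.246 per gene, against 1.01 per gene in the rest, and 5 genes (4.10%) held 2 or more, against 26.6%. The most introns stood in SPBC1348.12, a zinc finger protein gene with 4, followed by the sequence orphan SPBPB2B2.18 with 3. The median intron was 58 bp long at the ends and 55 bp in the rest. The single intron drawn in SPBPB21E7.02c, a gene of the phosphoglycerate mutase family, is 11 bp long.

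Untranslated regions (UTRs), the parts of an mRNA outside its coding sequence, were drawn for fewer genes at the ends, and by how much depended on the annotation read. In the all-chromosomes annotation a 5' UTR record was present for 8 of 32 genes at I left, 14 of 33 at I right, 7 of 31 at II left and 12 of 26 at II right. That was 33.6% of the 122 genes (95% Wilson interval 25.8 to 42.4%), against 90.1% in the rest, where no window was below 72.2%. A 3' UTR record was present for 68.0%, against 93.0% in the rest. Neither UTR was drawn for 35 genes (28.7%), against 3.56% of the rest. In the tetarr6 annotation, where the gene record stands for the transcript, the record reached beyond the first coding base for 83 of the 122 genes (68.0%), against 92.5% of the rest. The 2 annotations had a 5' flank in common for 39 members, the tetarr6 annotation alone drew one for 44, the all-chromosomes annotation alone for 2, and neither did for 37. The 3' side was drawn for the same 83 members in both. The coding segments of all 122 members were the same in the 2 annotations.

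Genes without a UTR record lay mostly near the end of the annotated chromosome. Distances were counted from that end, and the distance of a gene from the telomere itself was not measured. In the all-chromosomes annotation, 5 of the 60 genes wholly within 50 kb of an end had a 5' UTR record (8.33%), and 36 of the 62 genes farther in (58.1%). All 5 of the nearer genes were at I right, and I left, II left and II right had 0 of 18, 0 of 15 and 0 of 11. The tetarr6 gene record reached upstream of the coding sequence for 48.3% of the nearer genes and 87.1% of the farther ones. Neither UTR was drawn for 29 of the nearer genes (48.3%) and 6 of the farther ones (9.68%). Among genes that had a UTR, the median length was 128 bp for the 5' UTR and 216 bp for the 3' UTR at the ends, and 96 and 252 bp in the rest.

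**Figure D2:**
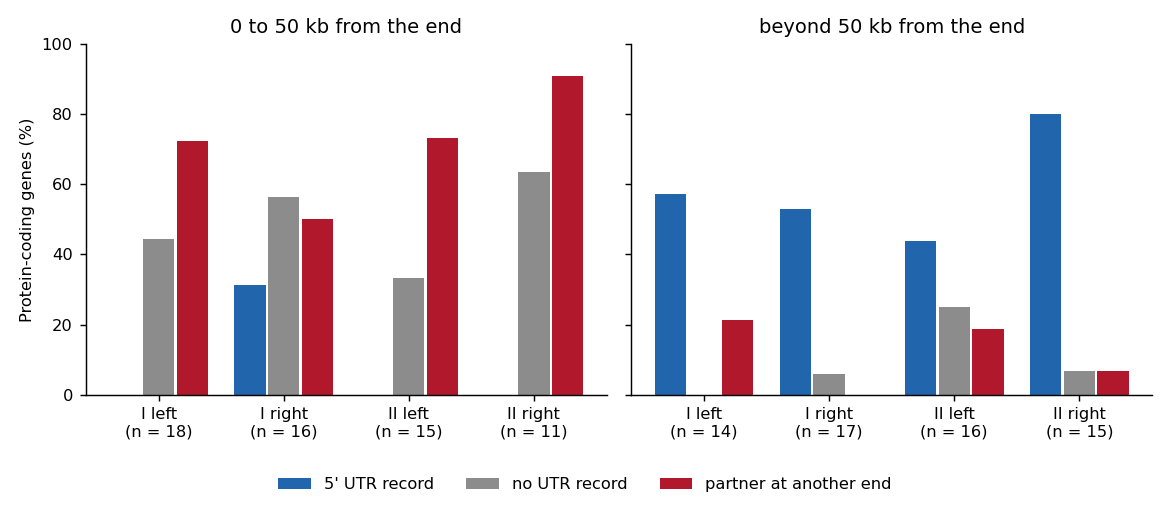
Bars give the percent of protein-coding genes at each end that had a 5' UTR record, no UTR record, or a partner at another end (a protein of at least 70% identity), for genes wholly within 50 kb of the end (left panel) and genes farther in (right panel), with the number of genes under each end. No gene within 50 kb had a 5' UTR record at I left, II left or II right, and partners at another end were carried by 42 of the 60 nearer genes and 7 of the 62 farther ones.

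Long non-coding RNA (lncRNA) genes were about as dense at the ends as in the rest by number, with no direction that held under the alternatives tried, but they covered less DNA. I left, I right, II left and II right held 58, 62, 54 and 57 lncRNA genes per 100 kb, against 57.1 in the rest and 44 to 72 in the windows. Per protein-coding gene this gave 1.89 lncRNA genes at the ends and 1.36 in the rest. They covered 36.8% of I left, 44.3% of I right, 34.9% of II left and 36.5% of II right, against 48.4% of the rest, and I left and II left were below every window of their chromosome. An lncRNA gene overlapped on the opposite strand 75 of the 122 members (61.5%) and 75.8% of the genes of the rest. At II right this held for 13 of 26 members. Overlap was counted over gene records, which were shorter at the ends (median 1237 bp, against 1775 bp), and was not adjusted for their length. The most lncRNA genes in any 20 kb zone of the ends, 24, lay between 60 and 80 kb from the end of I right. The zone between 20 and 40 kb held 4 at I left, 4 at I right, 8 at II left and 8 at II right, against a mean of 11.4 per 20 kb in 465 windows of the rest.

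Solo long terminal repeats (LTRs), left behind when a retrotransposon is lost by recombination, were frequent at the ends. There were 12 LTR records at I left, 4 at I right, 10 at II left and 7 at II right, against 1.30 per 100 kb in the rest. No window held more than 5, and 3 of 53 windows of chromosome I held as many as I right. The ends make up 3.95% of the 2 chromosomes and held 33 of their 159 LTR records (20.8%). Of their 11 full-length LTR retrotransposons 0 lay there, a number too small to set against that share of the length. LTR records stood at a median of 302 bp from the nearest protein-coding gene at the ends and 116.5 bp in the rest. An LTR record overlapped a gene once at the ends (ftm2 at I left, 3.03% of records) and in 13 cases in the rest (10.3%). Distance and overlap both depend on how much DNA the gene records cover, 40.1% at the ends and 79.1% in the rest. Neither was adjusted for that. Records were counted 1 by 1, although some recur with the copied genes described below. SPLTRA.1, SPLTRA.5, SPLTRA.89, SPLTRB.4, SPLTRB.68 and SPLTRB.69 each lay 257 to 259 bp from a gene of 1 protein family. SPLTRB.8, SPLTRB.9 and SPLTRB.10 had 0 mismatches to each other. The number of separate retrotransposon losses was not estimated. The ends also held 13 of the 18 pseudogene records of the 2 chromosomes, 5 at I left, 4 at II left, 4 at II right and 0 at I right, and 2 of their 3 gap records. One gap, at positions 29664 to 29763 of I left, ends at the base before ftm1, whose coding sequence of 953 bp is not a multiple of 3.

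**Figure D3:**
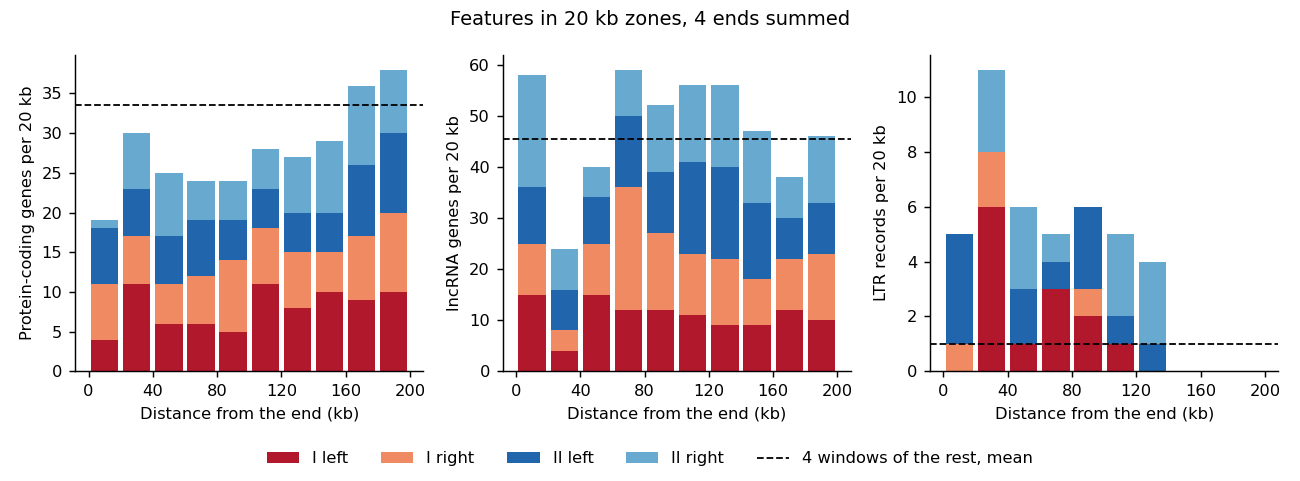
Stacked bars count protein-coding genes, lncRNA genes and LTR records in 20 kb zones by distance from the end in kb, coloured by end and summed over the 4 ends, with each feature placed by its midpoint. Dashed lines give the mean for 4 windows of 20 kb in the rest: 33.6, 45.5 and 1.01. Protein-coding genes stay under their line in the first 8 zones, and no LTR record lies between 140 and 200 kb.

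The 20 kb zones counted these features by distance from position 1 or the last annotated feature end. Copies of 1 family stood at 23588 bp at I left (SPAC212.03), 303 bp at II left (SPBC1348.15) and 26757 bp at II right (SPBCPT2R1.03). A zone summed over the 4 ends can therefore join different parts of the copied stretches. From the end inward, the zones held 19, 30, 25, 24 and 24 protein-coding genes over the 4 ends, and the next 5 zones held 28, 27, 29, 36 and 38, against a mean of 33.6 for 4 windows of the rest. LTR records numbered 5, 11, 6, 5 and 6 in the first 5 zones, 5 and 4 in the next, and 0 in the zones from 140 to 200 kb. The outermost zone of II right held 1 protein-coding gene, tlh2, and 22 lncRNA genes. At the 100 kb bound, the last genes inside were isp3 (far edge at 96966 bp), SPAC922.04 (99297 bp), SPBPB10D8.06c (98381 bp) and ecl3 (98038 bp). The first outside were pfl8 (101431 bp), SPAC922.03 (102296 bp), SPBPB10D8.07c (101140 bp) and SPBC8E4.03 (105184 bp). The genes nearest to an end were tlh1, whose 3' side reaches base 1 of I left, and SPAC750.08c, which reaches the last base of I right. At II left and II right they were SPBC1348.15, at 303 bp from the end, and tlh2, at 6478 bp.

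Transporters and uncharacterised proteins made up larger shares of the members than of the rest. Products were taken from the coding sequence records of the same locus in the tetarr6 annotation, which gave one for all 122 members, and were sorted by words in them. Transport words stood in 21 products (17.2%, 95% Wilson interval 11.5 to 24.9%), against 3.57% in the rest. One of the 21, SPAC922.06, is a reductase matched through the word carrier, and without that word the shares were 16.4% and 3.30%. Uncharacterised products numbered 39 (32.0%, 24.4 to 40.7%), against 10.5%, and 26 of them read hypothetical protein, against 2.76% of the rest. Oxidoreductase words stood in 11 products (9.02%, 5.11 to 15.4%), against 4.06%. Most were at I right, with 7 of 33 genes, and I left had 2 of 32. II left (1 of 31, 3.23%) and II right (1 of 26, 3.85%) were below the share of the rest. Hydrolase words stood in 10 products (8.20%, 4.51 to 14.4%), against 3.91%. Cell surface words stood in 3 products (2.46%, against 0.47% in the rest), helicase words in 3 (2.46%, against 1.28%) and regulator words in 2 (1.64%, against 2.93% in the rest). The remaining 34 products (27.9%) fell in no class, against 73.4% of the rest. Copied genes, described below, were counted separately in these shares and intervals. Uncharacterised products include families of 9, 4, 4, 3 and 2 members, and transport products include families of 3 and 3. Cell surface products include the identical pair pfl6 and SPBC1348.08c. Oxidoreductase products include the pairs ayr2 and SPBC1348.09, SPAC977.14c and SPAC750.01, and SPAC186.02c and SPAC186.07c. Hydrolase products include the pair plb4 and SPBC1348.10c, and helicase products the pair tlh1 and tlh2. Shares with 1 gene per family were not computed.

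**Figure D4:**
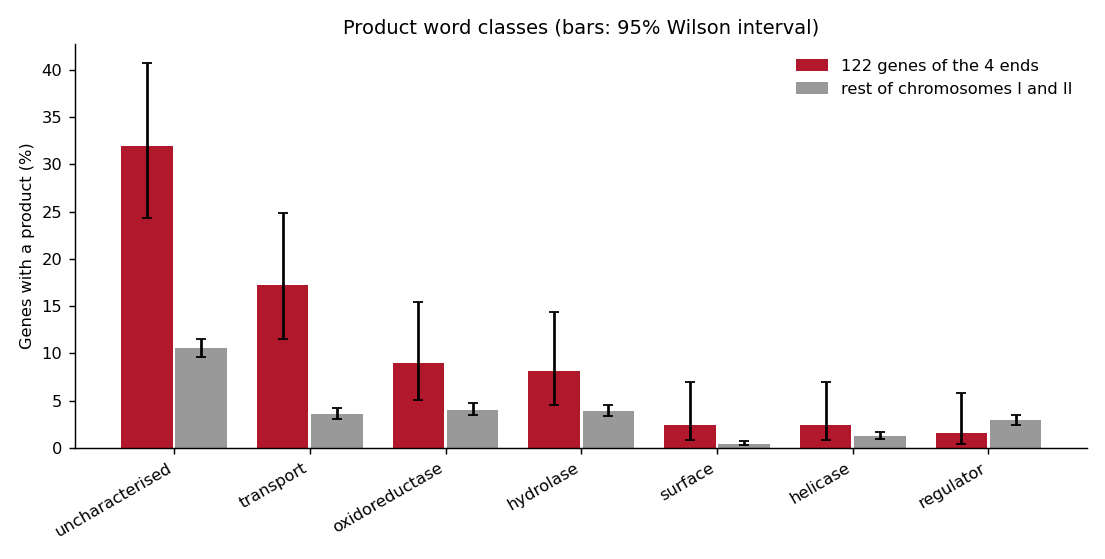
Bars give the percent of genes whose product holds words of a class, for the 122 genes of the ends (red) and the rest of chromosomes I and II (grey), with 95% Wilson intervals. Transport stands at 17.2% against 3.57%, and uncharacterised at 32.0% against 10.5%. Intervals overlap for hydrolase, helicase and regulator. Copied genes are counted separately, so the intervals are only a guide.

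Of the 20 transporter products without the carrier match, 13 named a substrate, among them sugars, iron, amino acids, urea, sulfate and phosphate, and 7 named none. Hexose transporters were ght3 at I left and ght7 at II left. The siderophore-iron transporter gene str3 lay at I left, and shu1, a cell-surface heme uptake gene in the literature on this yeast, stood next to it with the product text sequence orphan. The sodium and proton antiporter gene nhe1, which removes sodium from the cell, and a predicted water channel gene, SPAC977.17, were also at I left. I right held the amino acid permease genes cat1 (cationic amino acids) and put4 (proline), the sulfate transporter gene sul2, and SPAC869.03c, a predicted urea transporter gene like SPBPB8B6.02c at II left. II right held the phosphate transporter gene pho84 beside pho1, which encodes an acid phosphatase that frees phosphate outside the cell, and the permease gene SPBPB2B2.01. Transporter products without the carrier match numbered 4 of 32 at I left, 6 of 33 at I right, 7 of 31 at II left and 3 of 26 at II right, so all ends had some.

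Several metabolic genes stood side by side. At II right, gal7, tgd1, gal10 and gal1 were neighbours between 49106 and 57144 bp from the end. Gal1 (galactokinase), Gal7 (uridylyltransferase) and Gal10 (epimerase) carry out the successive steps of galactose use, and mel1 at I right encodes the melibiase that releases galactose. The genes tgd1 and gal10 overlap on opposite strands, as do fah1 (acetamidase) and grt1 at II left. I right held a formamidase-like, a urea transporter and an amidase gene, as well as yhb1, which encodes a nitric oxide dioxygenase. All 4 genes of the annotation with the product L-asparaginase, an enzyme that frees ammonia from asparagine, were members: SPAC977.12, SPAC186.03, SPBPB8B6.05c and SPBPB21E7.09. The CRCB domain genes fex1 and fex2, whose proteins export fluoride in yeasts, were the only genes with that product and lay at I left and II left. Glycolytic and fermentative enzymes were represented by eno102 (enolase) at II left and pdc102 (pyruvate decarboxylase) at I right. Helicase products were those of tlh1, tlh2 and SPAC212.06c, and aes1 at II left has a product named as an enhancer of RNA-mediated gene silencing.

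Many members had a near copy elsewhere in the genome. The deposited translations were compared by blastp, and a partner was a protein of at least 70% identity over at least 80% of both lengths. Of the 122 members, 59 had a partner (48.4%, 95% Wilson interval 39.7 to 57.1%), against 167 of 4064 genes of the rest (4.11%). For 49 members the partner lay at another of the 4 ends. The share with any partner was 53.1% at I left, 33.3% at I right, 58.1% at II left and 13 of 26 genes at II right. The 59 members with a partner fell into 23 families, of which 16 had members at more than 1 end, 8 at 3 or 4 ends and 3 at all 4. Some families, such as that of ght3, held only 1 member and its partners outside the ends. Members with a partner at another end lay at a median of 26757 bp from the end, and the other 73 members at 64558 bp. A 5' UTR record was present for 6 of the 49 (12.2%) and 35 of the 73 (47.9%), and the tetarr6 gene record reached upstream of the coding sequence for 46.9% and 82.2%.

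**Figure D5:**
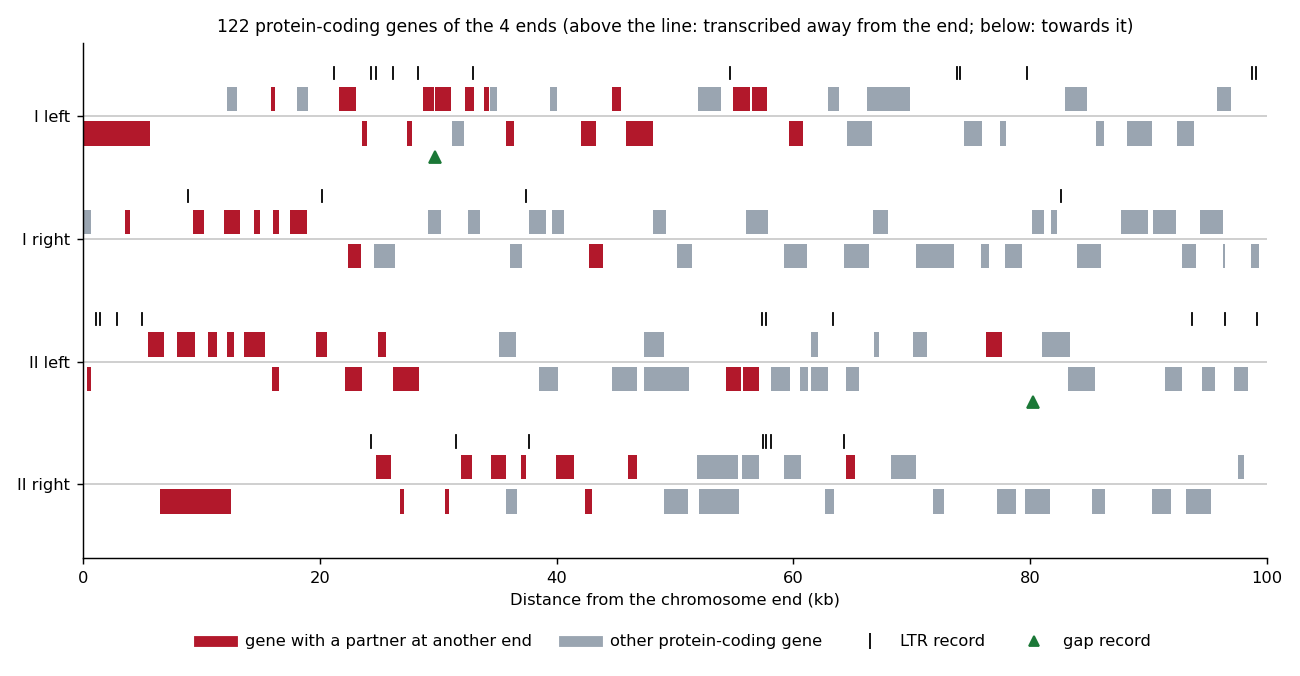
Protein-coding genes of the 4 ends by distance from the chromosome end in kb, drawn above the line where transcribed away from the end and below it where transcribed towards it. Genes with a partner at another end are red and others grey, black ticks are LTR records and green triangles gap records. Of the 49 red genes, 42 lie within 50 kb of their end.

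The families present at all 4 ends were 3 in number, all with the product hypothetical protein. One held ftm2 at I left, ftm3 at I right, ftm6 at II left and ftm7 at II right, each of 146 amino acids, with 2 differing positions in 441 coding bases. The 30 bases that hold a difference are shown because they set the copy at II right apart from the other 3. They are coding bases 166 to 195, at chrI:32395-32424 (plus strand) for ftm2, chrI:5564457-5564486 (minus) for ftm3, chrII:10734-10763 (plus) for ftm6 and chrII:4502202-4502231 (minus) for ftm7 in RefSeq ASM294v3. Capitals mark the differing position.
ftm2: tggtacatttactcggaagtaccatcggCt
ftm3: tggtacatttactcggaagtaccatcggCt
ftm6: tggtacatttactcggaagtaccatcggCt
ftm7: tggtacatttactcggaagtaccatcggTt
The copies at I left, I right and II left were equal over these bases, and the copy at II right differed.

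Another family held ftm1, ftm4, ftm5 and SPBPB2B2.19c, with 3 differing positions in the 953 bases that all 4 share. Its proteins are 344 amino acids long except that of ftm1, which has 316 and begins at the gap. The largest family had 9 members: SPAC212.01c and SPAC212.04c at I left, SPAC750.06c at I right, SPBC1348.01 and SPBC1348.07 at II left, and SPBCPT2R1.01c, SPBCPT2R1.04c, SPBPB2B2.07c and SPBPB2B2.14c at II right. Their proteins had 230 to 288 amino acids and each has 1 intron. Of its 36 possible pairs, 17 were partners, with identities of 70.1 to 100%, and the others are members of the family through a shared partner or a chain of partners. Their first 30 coding bases, counted from each start codon without alignment, are shown because they fall into 3 forms. For the genes printed they lie at chrI:28738-28767 (plus strand) for SPAC212.01c, chrII:19641-19670 (plus) for SPBC1348.07 and chrII:4474902-4474931 (minus) for SPBPB2B2.07c in ASM294v3, and capitals mark positions that differ among the 9.
SPAC212.01c: atgTCaaATCCAGAAAgCTTGAAAAaAcAg
SPBC1348.07: atgGTaaGAGATACTCgTAATGTGGaCcTg
SPBPB2B2.07c: atgTCaaATCCAGAAAgCGCAAAAAaAcAg
The form of SPAC212.01c was shared by 6 members, that of SPBC1348.07 by SPBPB2B2.14c as well, and that of SPBPB2B2.07c by no other.

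Families at 3 ends joined a predicted membrane transporter (SPAC750.02c, SPBC1348.05 and SPBPB2B2.16c), a predicted methyltransferase (SPAC977.03, SPAC750.03c and SPBC1348.04), a conserved fungal family (SPAC977.05c, SPBC1348.06c and SPBPB2B2.15), the hypothetical proteins SPAC212.03, SPBC1348.15 and SPBCPT2R1.03, and the L-asparaginases. Pairs at 2 ends included identical proteins for the cell surface glycoproteins pfl6 and SPBC1348.08c, the dehydrogenases ayr2 and SPBC1348.09, the phospholipases plb4 and SPBC1348.10c, and fex1 and fex2. The helicase genes tlh1 and tlh2 differed at 1 of 5662 coding bases counted from the start codon, and tlh1 stops at the first base of the chromosome sequence. Partners outside the ends were held by 10 members, among them ght3, ght7, cat1, pho84 and SPBPB2B2.06c, for which no partner lay at another end.

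Most partner pairs stood in runs with 1 gene order. Runs of at least 3 partner pairs, searched in both orders and allowing skipped neighbours, took in 36 of the 48 partner pairs between ends. They joined 9 of 11 gene pairs between I left and II left, 7 of 9 between I left and II right, 7 of 10 between II left and II right, 5 of 6 between I right and II left, 4 of 7 between I left and I right and 4 of 5 between I right and II right. All 6 runs found had the same order when counted from the end of each chromosome. Pairs outside the runs need not follow it: at I left fex1 (54936 bp from the end) came before the asparaginase gene SPAC977.12 (56491 bp), and at II left the asparaginase gene SPBPB8B6.05c (54321 bp) came before fex2 (55750 bp). The run from SPAC212.03 to plb4 at I left matched that from SPBC1348.15 to SPBC1348.10c at II left with a median protein identity of 99.3%.

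The DNA between the genes was copied as well. In ASM294v3, whose sequence gives the deposited translation for 121 of 122 members (the exception is ftm1), alignments of at least 500 bp and 99% identity to another place in the genome covered 40.6% of I left, 19.8% of I right, 37.9% of II left and 41.1% of II right. The median window of the rest had 0%, and the largest had 37.3%, while on chromosome I, 1 of 53 windows had as much as I right. Within 50 kb of the end the covered share was 79.1%, 39.5%, 59.0% and 80.9%, and farther in it was 2.02%, 0%, 16.7% and 1.40%. The 2 longest alignments joined 14983 bp of I left and II left at 99.6% identity and 12696 bp of I left and II right at 99.8%, and the first 10149 bp of II left matched II right at 100%. The coding span of 45 members (36.9%) lay wholly in such DNA, against 22 of 4081 other genes (0.54%). How the study placed reads that match several copies is not given in the sources used here, and the effect on values at these genes was not tested.

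A tandem repeat crossed the 100 kb bound at II left. SPBPB10D8.04c, SPBPB10D8.05c, SPBPB10D8.06c and, outside the bound, SPBPB10D8.07c encode identical predicted membrane transporters and followed each other at a step of 2759 bp. An LTR of 344 bp lay upstream of each, at the same step, with 0 mismatches among the 4 LTRs and 0 among the 4 coding sequences. The first 30 bases of the LTR strand are shown because the 4 copies share them. They lie at chrII:93831-93860, minus strand, for SPLTRB.8 in ASM294v3.
SPLTRB.8: tatcagcaacactacactacgctatgatgc

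Base composition was also lower in G and C at the ends. The GC share was 33.7% at I left, 33.2% at I right, 32.6% at II left and 33.2% at II right, and 36.1% in the rest. All 4 ends were below every 100 kb window of their chromosome, where the lowest had 34.3% on I and 34.1% on II. The median coding sequence had 38.1% GC at the ends and 39.5% in the rest, and the median 250 bases upstream of the coding sequence had 30.8% and 32.0%. The hexamer GGTTAC, searched on both strands as part of the telomere repeat of this yeast, had 0 matches in the last 300 bp of each end, and 7.42% of 300 bp windows of chromosomes I and II hold at least 1.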

How the data were processed

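The 2 deposited files used here are annotations whose values are start and end positions in bp, not measurements of a library. PomBase is the source of the all-chromosomes records, per the file headers, and Geneious 7.1.5 wrote the tetarr6 annotation, per the file headers. The submitters' processing notes name BWA and Trimmomatic, without versions, and no source used here gives the build. Genes were matched by systematic identifier, and the mRNA with the longest coding sequence stood for a gene. Of the members, 0 had more than 1 mRNA.

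Positions at II right in the tetarr6 annotation and in RefSeq ASM294v3 differ by -6539 bp from those of the all-chromosomes annotation. Distances and counts use the all-chromosomes annotation, and sequences use ASM294v3 at tetarr6 positions, whose lengths of chromosomes I and II are the same (5579133 and 4539804 bp). No protein or promoter table was given, so the translations deposited in the tetarr6 annotation were compared (BLAST+ 2.17.0, e-value 1e-10), a step added after seeing the files. DNA copies came from megablast (e-value 1e-20, at least 500 bp).

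The members, word classes, lists and alternatives were chosen with earlier results of these data known. Named genes are those with a name of their own, the first and last of each end, the longest, shortest and most intron-rich, members of families at more than 1 end, genes at the 100 kb bound and a fixed list of 34 genes, of which 33 were found under the listed name and 23 are members. Other genes, such as the urea transporters and the tandem transporters, were named after their products were seen. In 20 of 20 simulated annotations the counts were recovered exactly. Among random proteins, 30 of 30 planted copies at 95% identity and 0 of 30 at 55% were called partners at the 70% minimum. Of unrelated pairs, 0 were called. The planted copies were of full length and far from the minimum. Calls for pairs near 70% identity or of unequal length were therefore not tested. Scripts ran in Python 3.11.15, with Biopython 1.88, scipy 1.17.1 and matplotlib 3.10.9.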

Additional observations from a re-analysis of the deposited data

Results flagged for a closer look

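Each of 15 measures was examined over the 4 ends for an end far from the others. I right stood apart in copied DNA: 19.8% of its bases lay in alignments of at least 500 bp and 99% identity, against 40.6% at I left, 37.9% at II left and 41.1% at II right, and the gap to the nearest end was 0.847 of the whole range, above Dixon's critical value for 4 values. It was the 1 measure of the 15 to pass, and chance sets apart about 1 in 20 such groups, so the number that passed is close to what chance gives, and the 4 ends are places in a genome and not samples. I right also held the fewest members with a partner (33.3%), the fewest LTR records (4) and 0 pseudogene records. The relation between these was not tested.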

How the results depend on the processing

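Of 69 recomputed values, 58 kept their side and stayed within 1.5 times (for shares, within the 95% interval) of the value reported. Several of the 58 only repeated the main value, so they say little about how stable the results are. The first mRNA listed gave the same ratios for gene length (0.697) and introns (0.378), and 0 members had more than 1 mRNA. Leaving out the centromere record did not change the ratios for gene length, introns or 5' UTR records. Adding name and note text did not change the product shares of members. Over all alternatives the ratio of ends to rest ranged from 0.708 to 0.763 for gene density. For gene length it ranged from 0.557 to 0.772 (0.82 for coding length in its place). For intron-bearing genes and LTR records it ranged from 0.323 to 0.566 and from 5.4 to 7.46. With bounds of 50 and 150 kb the members numbered 60 and 190. The ratio for 5' UTR records, 0.373 at 100 kb, was 0.093 at 50 kb and 0.572 at 150 kb. It was 0.732 with 3' UTR records in their place and 0.736 with the tetarr6 gene record, so it depends on the annotation, and both of these were added after seeing the data. The lncRNA ratio, 1.01, stood below 1 at 50 kb (0.864), for covered bases (0.787) and without I right (0.986), so no direction is given for lncRNA number. Members with a partner made up 58.2% at 50% identity over 70% of both lengths and 39.3% at 90% over 90%, against 8.24% and 3.03% of the rest. Leaving out each end in turn, also added later, changed no other direction. Gene models, not sequencing depth, limit these values. No paired analysis was possible because no file used here holds a value of a sample.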
